A study of Mus musculus with 24 samples.

Results

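Matrix metalloproteinases, ADAMTS proteases and tissue inhibitors of metalloproteinases were read across 24 arrays of mouse skin. Genes were taken whose symbol is Mmp followed by a number, Adamts followed by a number, or Timp1 to Timp4. That gave 35 of the 18193 genes with a usable probe set, of which 16 are Mmp genes, 15 Adamts genes and 4 Timp genes. RefSeq lists 44 mouse genes under these symbols. The 9 not analysed here were Adamts2, Adamts13, Adamts14, Adamts17, Mmp15, Mmp21, Mmp25, Mmp27 and Mmp28. Mmp1a and Mmp1b carry a letter after the number and so fall outside the rule. Their values ran from 4.37 to 4.40 and from 4.37 to 4.39 on the log2(intensity + 16) scale used throughout, at background on every array.

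All recipients were female RAG2-/- mice, which lack mature lymphocytes of the B and T lineages. Syngeneic controls received Balb/c splenocytes. GVH-SSc mice, a model of the sclerodermatous form of graft-versus-host disease, received B10.D2 splenocytes with either an isotype antibody or an antibody to IFNAR1, which is part of the receptor for type I interferons. Shaved skin of the back over the shoulder blades was frozen on day 14 or 28, for 6 groups with 4 arrays each. The titles of the syngeneic samples name no antibody, so a difference between isotype and syngeneic skin cannot be assigned to the graft apart from the antibody. The animals' ages are not given in the labels. The labels do not say that the arrays of a group are separate animals, so the p-values reflect no more than array-to-array spread, which may be technical.

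Matrix metalloproteinases are zinc endopeptidases made as inactive proenzymes, and between them they cut collagens, elastin, proteoglycans and basement membrane proteins. ADAMTS proteases carry thrombospondin repeats; several cleave aggrecan and versican, and others trim procollagen. TIMPs bind the active site of these enzymes and block them. In skin, many metalloproteinases are low at rest and are made during wound repair and inflammation by keratinocytes at the wound edge, macrophages, neutrophils and fibroblasts.

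In RefSeq 10 Mmp genes form a cluster on mouse chromosome 9, in the order Mmp13, Mmp12, Mmp1b, Mmp3, Mmp1a, Mmp10, Mmp8, Mmp27, Mmp20 and Mmp7 (GRCm38.p6). RefSeq promoter sequences were matched for 21 of the 35 genes. In the 250 bases before each start site, both strands were searched for the AP-1 site TGANTCA, the TATA box TATAAA and the interferon-stimulated response element. The AP-1 letters were found in 6 of the 7 cluster genes measured and in 0 of the other 14 genes, against 6.75% of 32851 RefSeq promoters. The TATA letters were found in 5 of the 7 cluster genes and, outside the cluster, in Adamts1, against 12.4% of all promoters. The interferon element was found in Mmp13 and in none of the other 20 genes, against 2.98% of all promoters. A gene was counted when any of its annotated promoters matched, whereas the shares are of single promoters. A match describes letters in a window and is not evidence of binding.

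The following stretches are the 150 bases before the start site, written 5′ to 3′ on the gene's strand, which is the plus strand for all 6, with the matches in capitals. They show Mmp13, Mmp12, Mmp10 and Mmp3 because the values below turn on these cluster genes, Mmp7 because it carries the same AP-1 letters but stayed at background, and Timp1 because it moved with no match. They lie at chr9:7272364-7272513, chr9:7347224-7347373, chr9:7502192-7502341, chr9:7445672-7445821, chr9:7691940-7692089 and chrX:20870016-20870165, in the order printed. The Mmp12 stretch belongs to the downstream of its 2 annotated start sites; the upstream one holds no match. The Mmp7 stretch belongs to the upstream of its 2 annotated start sites, and the downstream one holds no match.
Mmp13: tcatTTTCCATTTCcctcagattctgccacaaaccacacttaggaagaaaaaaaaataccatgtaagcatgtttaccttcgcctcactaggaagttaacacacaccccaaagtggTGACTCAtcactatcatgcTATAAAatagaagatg
Mmp12: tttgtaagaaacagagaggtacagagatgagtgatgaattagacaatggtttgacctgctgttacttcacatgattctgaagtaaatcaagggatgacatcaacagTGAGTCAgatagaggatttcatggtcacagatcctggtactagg
Mmp10: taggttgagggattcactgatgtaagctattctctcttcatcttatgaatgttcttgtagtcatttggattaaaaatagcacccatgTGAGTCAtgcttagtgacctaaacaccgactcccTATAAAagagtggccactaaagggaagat
Mmp3: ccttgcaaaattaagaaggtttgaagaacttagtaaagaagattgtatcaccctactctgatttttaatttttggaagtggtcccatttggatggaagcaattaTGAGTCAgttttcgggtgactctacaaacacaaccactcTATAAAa
Mmp7: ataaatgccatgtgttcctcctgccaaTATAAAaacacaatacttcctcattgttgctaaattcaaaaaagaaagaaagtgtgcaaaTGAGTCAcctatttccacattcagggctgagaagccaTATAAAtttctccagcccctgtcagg
Timp1: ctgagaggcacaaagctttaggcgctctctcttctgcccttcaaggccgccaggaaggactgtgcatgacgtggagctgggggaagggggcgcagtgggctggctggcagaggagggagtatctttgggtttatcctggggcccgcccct
The AP-1 letters began 35 bases before the start in Mmp13, 44 in Mmp12, 46 in Mmp3, and 63 in both Mmp10 and Mmp7. The first capitals of Mmp13 are the interferon element read on the opposite strand, 146 bases before the start. In Mmp13, Mmp10 and Mmp3 the last capitals are the TATA box; Mmp7 holds that box at 2 places. No matches overlapped one another. Mmp20, which was at background too, holds the AP-1 letters, and Mmp8 does not.

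At day 28, 7 of the 35 genes were higher in GVH-SSc isotype skin than in syngeneic skin and 2 were lower. Those that rose were Mmp13, Mmp12, Mmp10, Mmp9, Mmp11, Mmp19 and Timp1, and those that fell were Adamts5 and, on its brightest probe set but not on another, Timp2. A gene is called when its adjusted p is below 0.05 in limma, with Benjamini-Hochberg adjustment over all 18193 genes. The 9 calls are 25.7% of the set, against 16.3% of all genes; by direction, 20% were higher against 6.66% and 5.71% were lower against 9.69%. The calls sat mainly among the metalloproteinases, where 6 of 16 rose and none fell, while among Adamts genes none of 15 rose and 1 fell. The median change was 1.11 over Mmp genes, -0.03 over Adamts genes and -0.00 over all genes.

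At day 14, 5 genes rose (Mmp13, Mmp12, Mmp19, Timp1 and Adamts1) and 2 fell (Mmp23 and, on its brightest probe set only, Timp2), which is 20% of the set against 13.6% of all genes. By direction, 14.3% were higher against 5.29% of all genes and 5.71% were lower against 8.3%. Most day 14 calls were lost in some fits that left out 1 array, although each change kept its direction. The count over all genes also fell, from 2472 to 1850 without syngeneic replicate 3, 1369 without syngeneic replicate 4 and 1350 without isotype replicate 1. Without syngeneic replicate 3 only Adamts1, Mmp19 and Timp2 stayed called, and without syngeneic replicate 4 only Mmp19 and Timp2. Without isotype replicate 1 the calls were Mmp12, Mmp19 and Timp2. Without isotype replicate 2, or without replicate 3, they were Adamts1, Mmp19, Timp1 and Timp2. Without isotype replicate 4 there were 10 calls, with Mmp3, Adamts4 and Adamts9 added.

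Between anti-IFNAR1 and isotype skin at day 28, 8 genes were called, 22.9% of the set against 13.3% of all genes. Mmp13, Mmp12, Mmp10, Mmp9, Mmp11, Mmp19 and Timp1 were lower with the antibody (20% against 4.89% of all genes), and Timp2 (that probe set) was higher. This comparison uses the same isotype arrays as the one with syngeneic skin, so the directions of both are tied and their agreement is not a separate result. At day 14, 0 of 35 genes were called between anti-IFNAR1 and isotype skin by limma, against 0.813% of all genes (0.159% higher, 0.654% lower), and 9 had an unadjusted p under 0.05. So did 3075 of all 18193 genes. Between anti-IFNAR1 and syngeneic skin, limma called 0 of 35 at either day, with 2 unadjusted p under 0.05 at day 14 and 0 at day 28. Of all genes, 1.12% (0.341% higher) and 0.033% were called in those 2 comparisons, and 2610 and 370 had an unadjusted p under 0.05. Between days, 2 of 35 genes rose in isotype skin (Mmp9 and Mmp11), where 2.2% of all genes were called and 1.15% rose. In syngeneic skin between days limma called 0, with 2 unadjusted p under 0.05, against 0.077% of all genes (0.0715% lower). In anti-IFNAR1 skin it called 0, with 4 unadjusted, against 0.555%. The difference between days of anti-IFNAR1 against isotype was called for 0 of 35, with 5 unadjusted, against 0.0715% of all genes. Of all 18193 genes, 2468 had an unadjusted p under 0.05 for that difference. For syngeneic and anti-IFNAR1 skin between days, 1652 and 2368 had one.

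**Figure D1:**
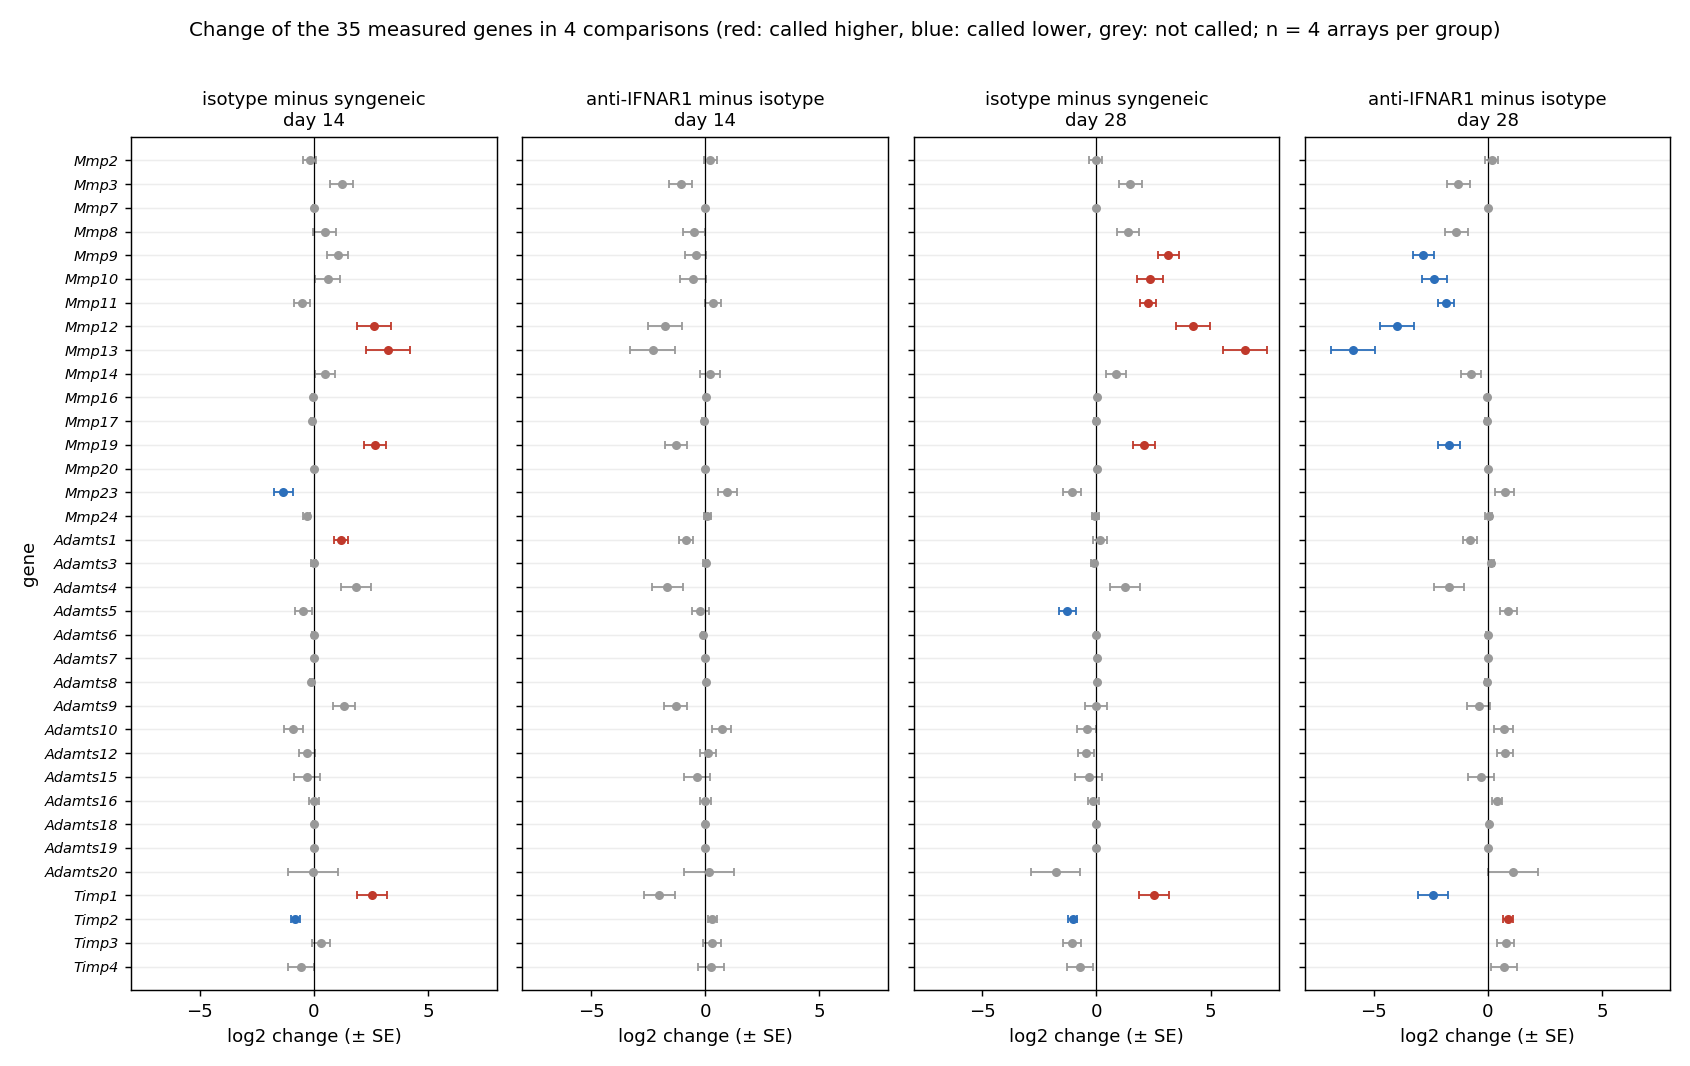
Log2 change with its standard error (horizontal axis) for each of the 35 genes (vertical axis) in 4 comparisons, n = 4 arrays per group; red and blue mark genes called higher and lower by limma. At day 28 the coloured points are 6 Mmp genes, Timp1, Timp2 and, in isotype minus syngeneic, Adamts5, and at day 14 no gene is coloured for anti-IFNAR1 minus isotype.

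Mmp13, an interstitial collagenase that cuts fibrillar collagen, was higher on all 4 isotype arrays than on any other array of day 28. Of the syngeneic arrays, 1 of 4 exceeded an intensity of 16 at day 28 and 2 of 4 at day 14, so the size of its change is set in part by the offset. On day 28 arrays it read 5.43, 4.48, 4.51 and 4.48 on the syngeneic arrays, 11.97, 9.68, 10.95 and 12.31 on the isotype arrays, and 5.06, 6.40, 4.49 and 5.38 on the anti-IFNAR1 arrays. Isotype skin stood clear of both other groups, with deposited intensities of 804 to 5076 against 6.36 to 27.0 in syngeneic skin. The change was 6.50 ± 0.98 (SE, n = 4; adjusted p = 0.00019) from syngeneic to isotype skin. With an offset of 1 in place of 16 it was 7.83, and with array weights 5.42. With anti-IFNAR1 Mmp13 fell by 5.89 ± 0.98 (SE; adjusted p = 0.00076) relative to isotype. In bulk skin, fewer cells of a type and less RNA per cell cannot be told apart. Against syngeneic skin the anti-IFNAR1 arrays differed by 0.61, with a 95% interval of -1.44 to 2.66.

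At day 14 the Mmp13 values were 5.84, 5.35, 4.47 and 4.59 in syngeneic skin, 10.71, 9.39, 8.62 and 4.53 in isotype skin, and 8.12, 4.79, 5.79 and 5.34 in anti-IFNAR1 skin. Isotype replicate 4 was at the syngeneic level while the other 3 isotype arrays lay above every syngeneic and anti-IFNAR1 array. Mmp13 rose by 3.25 ± 0.98 (SE; adjusted p = 0.033) in isotype skin. The call was lost without syngeneic replicate 3 or 4 or isotype replicate 1, 2 or 3, with adjusted p between 0.077 and 0.13. Anti-IFNAR1 minus isotype was -2.30 ± 0.98 (SE; adjusted p = 0.24). Without isotype replicate 4 that change was -3.56 (adjusted p = 0.016).

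Mmp8, the neutrophil collagenase, exceeded an intensity of 16 on 3 arrays. It read 4.38, 4.81, 6.08 and 7.63 on the isotype arrays at day 28 and 6.20 on isotype replicate 1 at day 14. On all other arrays it stayed between 4.34 and 4.39. The lowest isotype array was itself at background, and the change of 1.37 ± 0.49 (SE) from syngeneic skin did not pass the threshold (adjusted p = 0.064). With an offset of 1, Mmp8 was called in both day 28 comparisons of isotype skin.

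Mmp12, macrophage elastase, rose at both days. At day 28 its values were 4.74, 5.15, 4.77 and 5.49 in syngeneic skin, 8.08, 9.0, 9.36 and 10.59 in isotype skin, and 5.27, 5.69, 5.36 and 4.89 in anti-IFNAR1 skin. The isotype arrays were apart from both other groups. The change was 4.22 ± 0.75 (SE; adjusted p = 0.0007) in isotype skin, and with anti-IFNAR1 it fell by 3.95 ± 0.75 (SE; adjusted p = 0.0018) relative to isotype. At day 14 the values were 9.29, 7.48, 4.87 and 4.87 in syngeneic skin, 8.48, 9.71, 10.06 and 8.74 in isotype skin, and 8.2, 7.04, 6.87 and 7.82 in anti-IFNAR1 skin. Syngeneic replicate 1 lay within the isotype range. Mmp12 rose by 2.62 ± 0.75 (SE; adjusted p = 0.026), a call lost without syngeneic replicate 3 or 4 or isotype replicate 2 or 3, with adjusted p between 0.076 and 0.1. Anti-IFNAR1 minus isotype at day 14 was -1.77 ± 0.75 (SE; adjusted p = 0.24), although those groups did not overlap.

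The stromelysins cut proteoglycans and laminins and can activate other proenzymes. Mmp10, stromelysin 2, was at background in syngeneic skin, with 4.36, 4.35, 4.35 and 4.36 at day 14 and 4.35, 4.34, 4.37 and 4.35 at day 28. It read 8.35, 4.71, 6.28 and 7.43 on the isotype arrays at day 28 and 4.36, 4.35, 4.34 and 4.35 on the anti-IFNAR1 arrays. The 4 isotype arrays were above all others of that day, though replicate 2 was close to background. The change was 2.34 ± 0.56 (SE; adjusted p = 0.0067) in isotype skin, and relative to isotype it fell by 2.34 ± 0.56 (SE; adjusted p = 0.0083) with anti-IFNAR1. Since the lower level is the background, both sizes are set in part by the offset of 16. At day 14 the isotype arrays read 6.73, 4.41, 4.35 and 4.35 and the anti-IFNAR1 arrays 4.67, 4.34, 4.36 and 4.36, so only 1 array was clearly above background and neither comparison was called.

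Mmp3, stromelysin 1, was present on every array. At day 28 it read 8.90, 9.77, 8.95 and 9.74 in syngeneic skin, 11.49, 9.74, 10.58 and 11.45 in isotype skin, and 9.95, 8.99, 9.55 and 9.64 in anti-IFNAR1 skin. Isotype replicate 2 lay within the range of the other groups. The changes of 1.48 ± 0.51 (SE; adjusted p = 0.055) from syngeneic to isotype and -1.29 ± 0.51 (SE; adjusted p = 0.11) from isotype to anti-IFNAR1 were not called.

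Mmp11, stromelysin 3, lies outside the chromosome 9 cluster and is activated inside the cell by furin. It is the 1 gene of the set called for a difference between days in the change from syngeneic to isotype skin. In that comparison 6 of 35 genes, and 1775 of all 18193 genes, had an unadjusted p under 0.05 by limma. The difference for Mmp13, 3.25, was larger than that of Mmp11 but was not called. At day 14 Mmp11 read 5.69, 5.86, 5.86 and 5.70 in syngeneic skin, 5.22, 5.37, 5.02 and 5.36 in isotype skin and 5.94, 5.18, 5.22 and 6.0 in anti-IFNAR1 skin. Its day 28 values were 5.34, 5.08, 5.23 and 6.09 in syngeneic skin, 7.75, 8.18, 8.48 and 6.36 in isotype skin, and 5.66, 6.51, 5.63 and 5.65 in anti-IFNAR1 skin. By mean, isotype skin was thus the lowest day 14 group and the highest day 28 group, where anti-IFNAR1 replicate 2 overlapped isotype replicate 4.

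From syngeneic to isotype skin, Mmp11 differed by -0.54 ± 0.35 (SE; adjusted p = 0.35) at day 14 and rose by 2.25 ± 0.35 (SE; adjusted p = 0.00023) at day 28. The difference between days was 2.79 ± 0.49 (SE; adjusted p = 0.043), a call that 0.044% of all genes share. It was lost without 12 of the 16 arrays in turn (each syngeneic day 14 replicate, isotype day 14 replicates 2, 3 and 4, syngeneic day 28 replicates 1, 2 and 3, and isotype day 28 replicates 1 and 2), with adjusted p from 0.053 to 0.12 and a change of 2.63 to 2.83. With anti-IFNAR1, Mmp11 fell by 1.83 ± 0.35 (SE; adjusted p = 0.0019) relative to isotype at day 28. Within isotype skin it rose by 2.45 ± 0.35 (SE; adjusted p = 0.0015) from day 14 to day 28.

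The gelatinases cut denatured collagen and type IV collagen of basement membranes. Mmp9, gelatinase B, is made by neutrophils, macrophages and wound keratinocytes. At day 28 it read 7.34, 7.37, 7.25 and 6.72 in syngeneic skin, 11.35, 8.90, 9.87 and 11.12 in isotype skin, and 7.86, 6.40, 7.86 and 7.86 in anti-IFNAR1 skin. Every isotype array was above every array of the other groups. The change was 3.14 ± 0.46 (SE; adjusted p = 0.00016) in isotype skin, and relative to isotype it fell by 2.81 ± 0.46 (SE; adjusted p = 0.00065) with anti-IFNAR1. A second Mmp9 probe set gave 3.60 and -3.09 in these comparisons.

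At day 14 Mmp9 read 6.74, 6.66, 7.44 and 7.45 in syngeneic skin, 7.37, 8.87, 8.45 and 7.81 in isotype skin, and 8.05, 7.66, 7.66 and 7.5 in anti-IFNAR1 skin. The isotype range overlapped both others, and the change of 1.05 ± 0.46 (SE; adjusted p = 0.14) from syngeneic skin was not called. Within isotype skin Mmp9 rose by 2.19 ± 0.46 (SE; adjusted p = 0.018) from day 14 to day 28, where 2.2% of all genes were called. That call was lost without isotype replicate 1 or 4 of day 14, or replicate 1 or 4 of day 28, with adjusted p from 0.051 to 0.067. The difference of the isotype effect between days was 2.09 ± 0.65 (SE; adjusted p = 0.27). Mmp2, gelatinase A, a fibroblast product, ran from 10.76 to 12.43 over all arrays, and its changes in the comparisons of isotype with syngeneic skin were -0.17 ± 0.28 (SE) and -0.02 ± 0.28 (SE), with 95% intervals of -0.77 to 0.42 and -0.62 to 0.57.

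**Figure D2:**
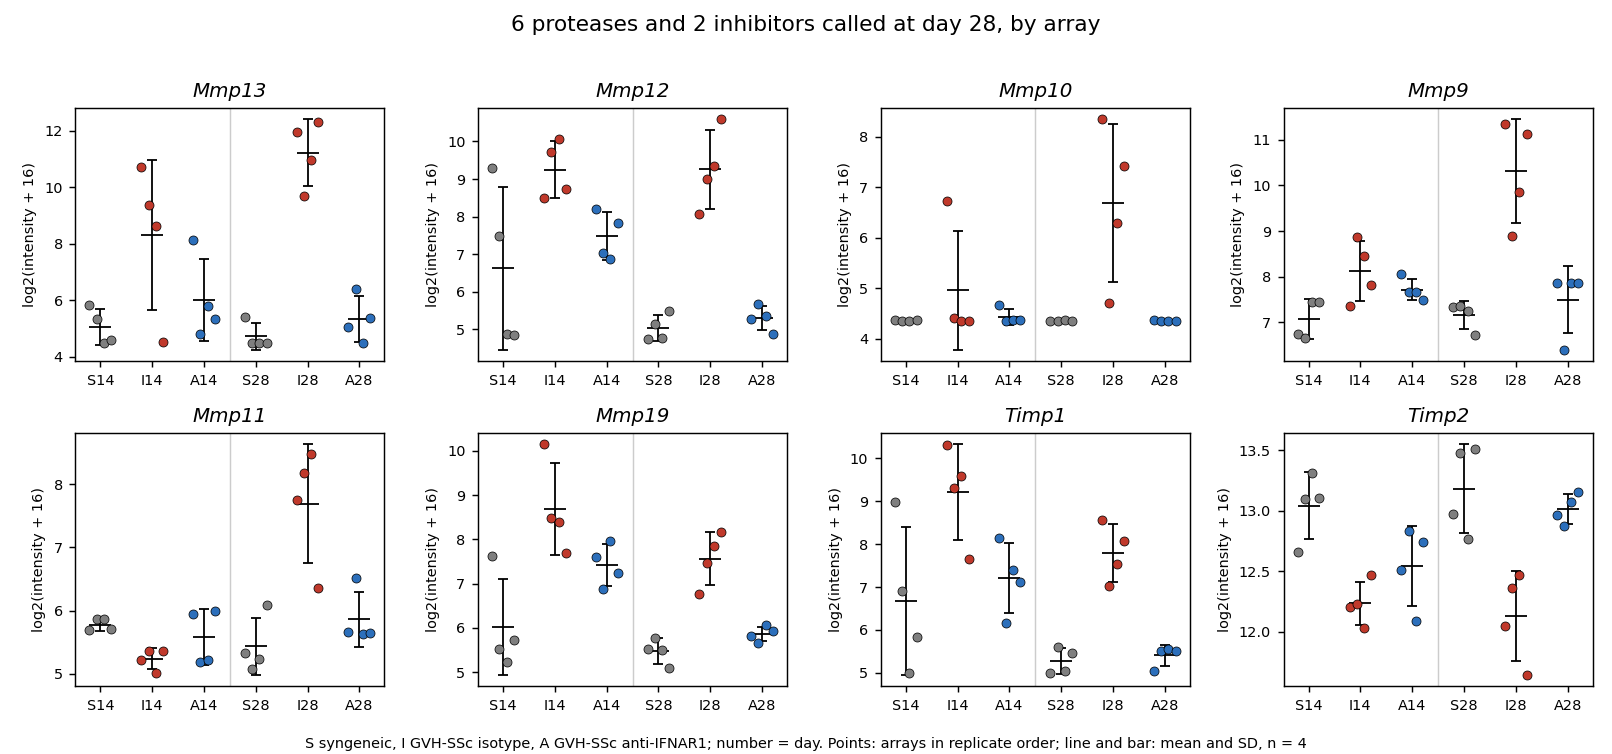
Values on each array (points, log2(intensity + 16)) of 6 proteases and 2 inhibitors in the 6 groups, with the mean and SD of 4 arrays; S is syngeneic, I is isotype and A is anti-IFNAR1, and the number is the day. The day 28 isotype arrays lie above all other day 28 arrays for Mmp13, Mmp12, Mmp10, Mmp9, Mmp19 and Timp1 and below them for Timp2, and for Mmp11 1 anti-IFNAR1 array overlaps them.

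Mmp19, a basement membrane protease of epidermis and vessels, rose at both days and kept its day 14 call without any single array. At day 14 it read 7.62, 5.52, 5.24 and 5.72 in syngeneic skin, 10.15, 8.49, 8.39 and 7.70 in isotype skin and 7.59, 6.89, 7.97 and 7.24 in anti-IFNAR1 skin. Isotype and syngeneic arrays did not overlap, though syngeneic replicate 1 came within 0.1 of the lowest isotype array. The change was 2.66 ± 0.49 (SE; adjusted p = 0.0023). The day 28 arrays read 5.53, 5.78, 5.51 and 5.09 in syngeneic skin, 6.78, 7.48, 7.85 and 8.17 in isotype skin, and 5.81, 5.66, 6.06 and 5.93 in anti-IFNAR1 skin. Isotype skin was again apart from both others. The change was 2.09 ± 0.49 (SE; adjusted p = 0.0055), and relative to isotype Mmp19 fell by 1.70 ± 0.49 (SE; adjusted p = 0.024) with anti-IFNAR1. The latter call was lost without isotype replicate 3 or 4 or anti-IFNAR1 replicate 1 or 4, with adjusted p from 0.052 to 0.085. A second, dimmer Mmp19 probe set, whose intensity never exceeded 99, changed by 0.08 and -0.08 in these day 28 comparisons (adjusted p = 1 for both). With the mean of both probe sets the changes were 1.09 (adjusted p = 0.028) and -0.89 (adjusted p = 0.082).

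Mmp23, a short membrane-anchored member of the family, went the other way at day 14. It read 7.47, 8.04, 8.39 and 9.55 in syngeneic skin, 6.54, 7.10, 6.77 and 7.69 in isotype skin and 7.38, 8.19, 7.83 and 8.60 in anti-IFNAR1 skin. The groups overlapped at single arrays, and Mmp23 fell by 1.33 ± 0.40 (SE; adjusted p = 0.034). The call was lost without syngeneic replicate 3 or 4 or isotype replicate 1, 2 or 3, with adjusted p from 0.068 to 0.13. At day 28 it read 7.92, 8.31, 8.36 and 8.34 in syngeneic skin, 8.26, 6.88, 6.99 and 6.56 in isotype skin, and 8.45, 7.79, 7.64 and 7.75 in anti-IFNAR1 skin. Isotype replicates 2 to 4 were low and replicate 1 was not, and the change of -1.06 ± 0.40 (SE; adjusted p = 0.083) was not called. A second, dimmer Mmp23 probe set changed by -0.29 (adjusted p = 0.59) at day 14 and -0.52 (adjusted p = 0.26) at day 28. These are isotype minus syngeneic, from a limma fit over all probe sets with 1 gene symbol. With the mean of all probe sets Mmp23 was called lower at day 14 and at day 28.

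Mmp14, the membrane-type protease that activates pro-Mmp2, ran from 8.88 to 12.54, with changes of 0.50 ± 0.44 and 0.86 ± 0.44 (SE) from syngeneic to isotype skin at day 14 and day 28, neither called. The membrane-type proteases Mmp24 (4.79 to 5.88), Mmp17 (4.46 to 5.03) and Mmp16 (4.54 to 4.65) stayed near background. Matrilysin, Mmp7, and the enamel protease Mmp20 never exceeded an intensity of 16. In all, 28 of the 35 genes exceeded that intensity on at least 1 array, and the 7 that did not were Mmp7, Mmp16, Mmp20, Adamts6, Adamts7, Adamts18 and Adamts19.

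Among the ADAMTS aggrecanases and versicanases, Adamts1 and Adamts5 were called in 1 comparison each and in opposite directions. Adamts1, which cuts versican, read 9.57, 9.72, 9.54 and 9.27 in syngeneic skin at day 14, 11.74, 10.63, 10.74 and 9.66 in isotype skin, and 9.73, 10.30, 9.49 and 9.92 in anti-IFNAR1 skin. All isotype arrays but replicate 4 were above the syngeneic ones, and Adamts1 rose by 1.17 ± 0.31 (SE; adjusted p = 0.017). The call was lost without syngeneic replicate 4 (adjusted p = 0.058) or isotype replicate 1 (adjusted p = 0.064). By day 28 it read 10.21, 10.44, 10.01 and 9.84 in syngeneic skin, 10.29, 9.76, 10.59 and 10.55 in isotype skin, and 9.21, 9.94, 9.41 and 9.45 in anti-IFNAR1 skin. There isotype and syngeneic arrays overlapped, with a change of 0.17 ± 0.31 (SE), and anti-IFNAR1 minus isotype was -0.79 ± 0.31 (SE; adjusted p = 0.1).

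Adamts5, an aggrecanase of fibroblasts, read 9.23, 10.15, 9.91 and 10.70 in syngeneic skin at day 28, 8.31, 8.66, 9.16 and 8.78 in isotype skin, and 9.87, 9.51, 9.20 and 9.90 in anti-IFNAR1 skin. The isotype arrays were the lowest, without overlap. Adamts5 fell by 1.27 ± 0.37 (SE; adjusted p = 0.022) in isotype skin, and anti-IFNAR1 minus isotype was 0.89 ± 0.37 (SE; adjusted p = 0.13). The call was lost without syngeneic replicate 2 or 4 or isotype replicate 1, with adjusted p from 0.055 to 0.086. It was lost too with array weights (-0.78, adjusted p = 0.058), with the hair follicle mean as covariate (0.054), in only the arrays compared (0.055) and without arrays of high Gapdh ratio (0.062). At day 14 it read 9.90, 10.29, 9.48 and 8.84 in syngeneic skin, 9.77, 9.31, 8.44 and 9.15 in isotype skin, and 9.22, 9.71, 8.25 and 8.67 in anti-IFNAR1 skin, with overlap throughout and a change of -0.46 ± 0.37 (SE) from syngeneic to isotype. In a limma fit over all probe sets, other Adamts5 probe sets gave -0.95 (adjusted p = 0.02) and -0.48 (adjusted p = 0.5) from syngeneic to isotype at day 28. With the mean of all its probe sets that change was -0.68 (adjusted p = 0.026).

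Adamts4 and Adamts9, inflammation-induced proteoglycanases, were high on 1 or a few isotype arrays. Adamts4 read 11.29, 8.81, 8.94 and 7.07 in isotype skin at day 14 against 7.88, 6.39, 6.55 and 7.84 in syngeneic skin, a change of 1.86 ± 0.66 (SE; adjusted p = 0.067). Adamts9 read 10.52, 8.35, 7.85 and 7.32 against 6.76, 6.55, 7.55 and 7.98, a change of 1.30 ± 0.49 (SE; adjusted p = 0.084). Isotype replicate 1 was the highest array for both. That array was the highest of the 4 isotype arrays of day 14 for 21 of the 28 genes above background.

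Adamts20, a versican-cleaving protease of developing skin, was near background on most arrays and high on a few. It read 9.43 and 8.11 on syngeneic replicates 3 and 4 of day 28, 10.44 on anti-IFNAR1 replicate 2 of day 28 and 6.29 on isotype replicate 1 of day 28. On the other 20 arrays it lay between 4.51 and 5.01. The mean log2 value of 17 hair follicle genes was 11.67, 10.81, 13.05 and 7.61 on those 4 arrays. On the other 20 arrays it was 4.73 to 8.31. Adamts3, a procollagen N-proteinase, and Adamts16 each exceeded an intensity of 16 on 1 array, and Adamts8 did too. Adamts10 (5.41 to 7.56), Adamts12 (6.64 to 8.47) and Adamts15 (6.10 to 8.88) were above background on every array and were not called in any comparison.

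**Figure D3:**
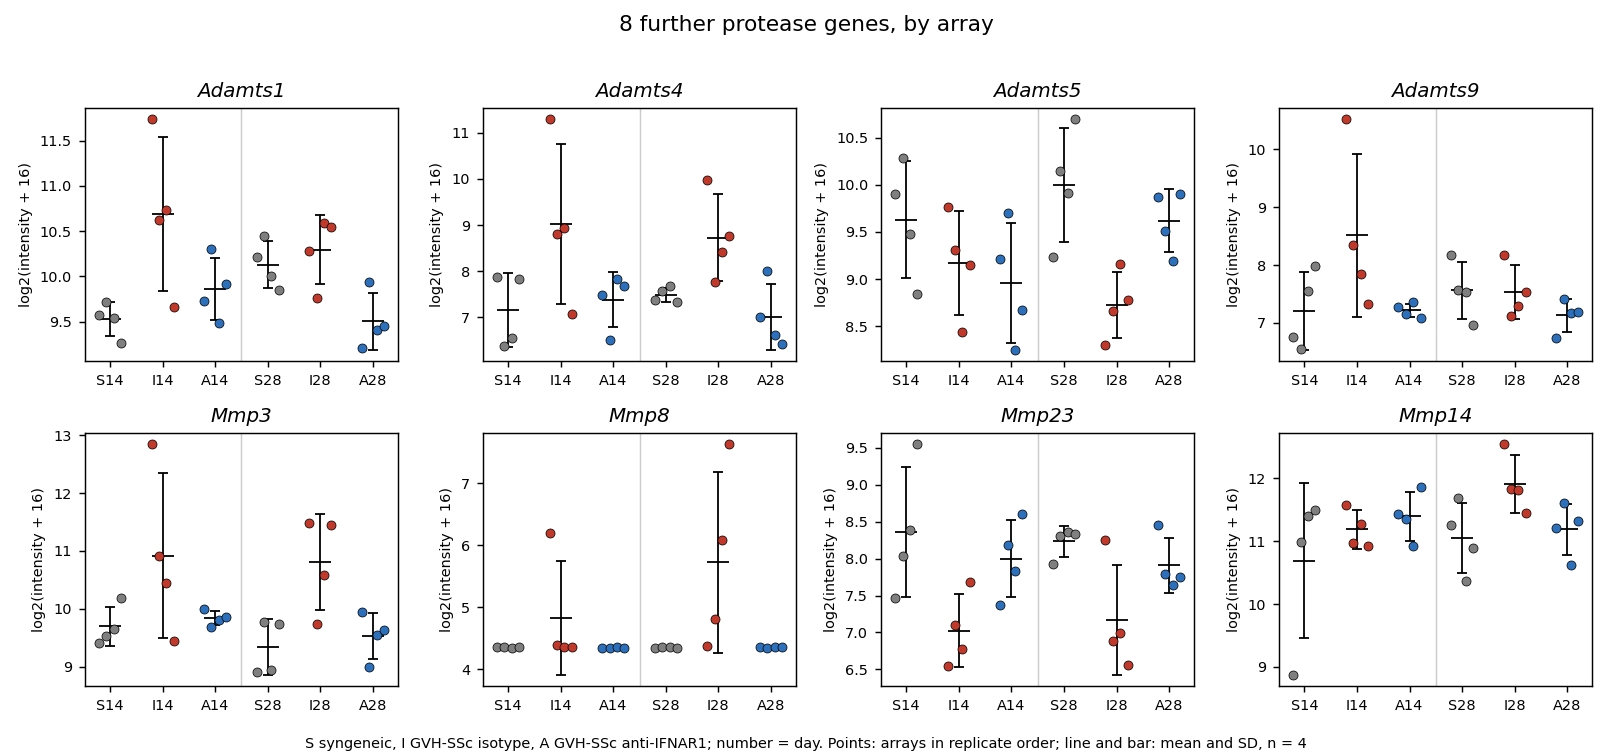
Values on each array (points, log2(intensity + 16)) of Adamts1, Adamts4, Adamts5, Adamts9, Mmp3, Mmp8, Mmp23 and Mmp14 in the 6 groups, with mean and SD of 4 arrays; letters and numbers under the axis are group and day. For Adamts4, Adamts9, Mmp3 and Mmp8 at day 14, the first isotype array (11.29, 10.52, 12.85 and 6.20) lies well above the other 3.

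Of the inhibitors, Timp1 rose with the proteases. It exceeded an intensity of 16 on 3 of 4 syngeneic arrays at each day, so the size of its change is set in part by the offset. At day 28 it read 4.99, 5.61, 5.05 and 5.46 in syngeneic skin, 8.57, 7.02, 7.53 and 8.07 in isotype skin and 5.05, 5.51, 5.55 and 5.51 in anti-IFNAR1 skin. Isotype skin was apart from both other groups, and the change was 2.52 ± 0.66 (SE; adjusted p = 0.013). With anti-IFNAR1 Timp1 fell by 2.39 ± 0.66 (SE; adjusted p = 0.021) relative to isotype, a call lost without isotype replicate 1 or 4 or anti-IFNAR1 replicate 1, with adjusted p from 0.058 to 0.069. At day 14 it read 8.99, 6.91, 4.99 and 5.84 in syngeneic skin, 10.31, 9.30, 9.58 and 7.66 in isotype skin, and 8.15, 6.16, 7.40 and 7.13 in anti-IFNAR1 skin. Syngeneic replicate 1 and isotype replicate 4 made those groups overlap. Timp1 rose by 2.53 ± 0.66 (SE; adjusted p = 0.017), a call lost without syngeneic replicate 3 or 4 or isotype replicate 1, with adjusted p from 0.062 to 0.067. Anti-IFNAR1 minus isotype was -2.0 ± 0.66 (SE; adjusted p = 0.14), and -2.52 (adjusted p = 0.044) without isotype replicate 4.

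Timp2, which blocks most metalloproteinases and also helps Mmp14 to activate pro-Mmp2, went down on the probe set that represents it. At day 28 that probe set read 12.98, 13.48, 12.77 and 13.51 in syngeneic skin, 12.05, 12.36, 12.47 and 11.65 in isotype skin, and 12.97, 12.87, 13.08 and 13.15 in anti-IFNAR1 skin. The isotype arrays were below all others. Timp2 fell by 1.05 ± 0.20 (SE; adjusted p = 0.0013) in isotype skin, and anti-IFNAR1 was higher than isotype by 0.88 ± 0.20 (SE; adjusted p = 0.0063). At day 14 it read 12.66, 13.10, 13.31 and 13.10 in syngeneic skin, 12.21, 12.23, 12.04 and 12.47 in isotype skin, and 12.51, 12.84, 12.09 and 12.74 in anti-IFNAR1 skin. It fell by 0.81 ± 0.20 (SE; adjusted p = 0.013) from syngeneic to isotype skin, again without overlap.

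The direction of Timp2 depended on the probe set. Of 6 probe sets, 1 was at background on every array. In a limma fit over all probe sets with 1 gene symbol, the one used changed by -0.81 ± 0.20 (SE; adjusted p = 0.018) at day 14, while another rose by 1.06 ± 0.21 (SE; adjusted p = 0.0053). At day 28 that other probe set differed by 0.41 (adjusted p = 0.29) between isotype and syngeneic skin and by -0.32 (adjusted p = 0.49) between anti-IFNAR1 and isotype skin. The other 3 probe sets were not called in any of these comparisons. From syngeneic to isotype skin they gave 0.22, 0.46 and 0.78 at day 14 and -0.62, -0.38 and -0.34 at day 28. For anti-IFNAR1 minus isotype at day 28 they gave 0.19, 0.07 and 0.06. At day 28 these 3 thus had the signs of the probe set used, and at day 14 the opposite sign. The mean of all 6 changed by 0.28 (adjusted p = 0.71), -0.33 (adjusted p = 0.74) and 0.15 (adjusted p = 0.98) in the 3 comparisons. No direction was thus called for Timp2 over the mean of its probe sets.

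**Figure D4:**
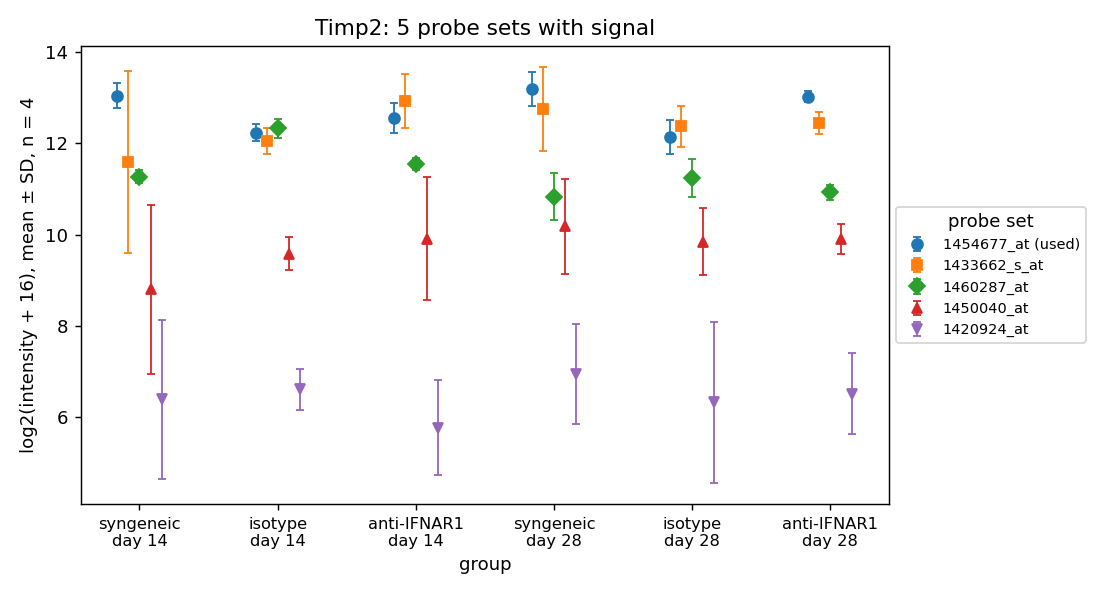
Mean and SD of 4 arrays (log2(intensity + 16)) of the 5 Timp2 probe sets with signal, in the 6 groups. From syngeneic to isotype skin at day 14, the probe set used goes down by 0.81, and the one averaging 11.26 in syngeneic skin goes up by 1.06 to 12.33.

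Timp3, a matrix-bound inhibitor that also blocks aggrecanases, lay close to the threshold at day 28 on the probe set that represents it. On the day 28 arrays the values were 11.55, 11.86, 10.59 and 10.97 in syngeneic skin, 9.23, 10.21, 11.15 and 10.07 in isotype skin, and 10.58, 10.84, 11.11 and 11.25 in anti-IFNAR1 skin. Isotype replicate 3 overlapped the others, and the change was -1.08 ± 0.39 (SE; adjusted p = 0.066). Without isotype replicate 3 it was -1.41 (adjusted p = 0.016), and without syngeneic replicate 3 it was -1.30 (adjusted p = 0.041). Timp3 was also called lower with quantile normalization (adjusted p = 0.047), the mean of all probe sets (0.026), array weights (0.00036), the Gapdh ratio as covariate (0.01) and without the dimmest 40% of genes (0.035). In the fit over probe sets, a dimmer Timp3 probe set fell by 0.77 (adjusted p = 0.04), and 2 others gave -1.26 (adjusted p = 0.054) and -0.18 (adjusted p = 0.73). At day 14 Timp3 read 10.20, 10.97, 11.19 and 9.58 in syngeneic skin, 11.06, 10.67, 10.68 and 10.76 in isotype skin, and 11.34, 11.12, 10.37 and 11.58 in anti-IFNAR1 skin, with a change of 0.31 ± 0.39 (SE) from syngeneic to isotype.

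Timp4 varied widely within groups. At day 28 it read 9.28, 9.85, 10.07 and 9.13 in syngeneic skin, 7.75, 8.86, 9.0 and 9.85 in isotype skin, and 11.06, 8.03, 9.93 and 9.26 in anti-IFNAR1 skin. At day 14 it read 10.22, 9.57, 9.13 and 10.51 in syngeneic skin, 10.46, 8.67, 8.84 and 9.20 in isotype skin, and 9.14, 9.04, 9.94 and 10.02 in anti-IFNAR1 skin. All groups overlapped, and the changes from syngeneic to isotype were -0.56 ± 0.56 and -0.72 ± 0.56 (SE) at day 14 and day 28.

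Other genes of the same biology were read from fixed lists. Of 16 activators and inhibitors measured, 5 were higher and 1 lower in isotype than in syngeneic skin at day 28 (median change 0.11), and 2 were higher at day 14 (median 0.03). Of all genes, 6.66% were higher and 9.69% lower at day 28, and 5.29% were higher at day 14. At day 28 Plaur, the urokinase receptor, rose by 2.52 ± 0.45 (SE; adjusted p = 0.00073), Klk7, a kallikrein that can activate pro-Mmp9, by 2.05 ± 0.33 (SE; adjusted p = 0.00031), and the proprotein convertase Furin by 0.89 ± 0.29 (SE; adjusted p = 0.039). Reck, a membrane-anchored metalloproteinase inhibitor, fell by 2.08 ± 0.32 (SE; adjusted p = 0.00023). With anti-IFNAR1 at day 28, 4 of the 16 were lower than isotype and 1 higher (median -0.14), against 4.89% and 8.42% of all genes. Plaur fell by 2.59, Klk7 by 1.90 and Plau, urokinase, by 1.57, and Reck was higher by 1.83. At day 14 Plaur and Klk7 rose by 1.73 and 1.74, and none was called for anti-IFNAR1 against isotype.

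Of 17 ADAM and ADAMTS-like genes, 2 were higher and 2 lower in isotype skin at day 28 (median -0.00), against 6.66% and 9.69% of all genes. Adam8, a leukocyte membrane protease, rose by 3.33 ± 0.46 (SE; adjusted p = 9e-05) and Adam17, the sheddase of tumour necrosis factor, by 0.78 ± 0.15 (SE; adjusted p = 0.0013). The catalytically inactive Adamtsl1 and Adamtsl5 fell by 1.77 and 0.78. With anti-IFNAR1, Adam8 fell by 2.85, Adam17 fell by 0.91, and Adamtsl1 was higher by 1.33. At day 14 Adam8 rose by 1.88, Adam17 rose by 0.47 and Adamtsl5 fell by 1.13.

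Of 22 matrix substrates, none was called at day 28 between isotype and syngeneic skin (median -0.10) or between anti-IFNAR1 and isotype skin (median 0.08). Of all genes, 16.3% and 13.3% were called in these comparisons. At day 14, from syngeneic to isotype skin, Thbs1, the matricellular thrombospondin 1, rose by 2.66. Comp, a cartilage and tendon matrix protein, and Vwf, the substrate of Adamts13, fell by 2.12 and 1.03. In that comparison 5.29% of all genes were higher and 8.3% lower. None of the 22 was called at day 14 for anti-IFNAR1 against isotype, where 0.813% of all genes were called.

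Of 21 AP-1 factors and cytokines that induce metalloproteinases, 9 rose in isotype skin at day 28 (median change 0.79), 7 rose at day 14 (median 0.99), and none fell at either day, while 6.66% and 5.29% of all genes rose. At day 28 Il1b rose by 4.98 ± 0.73 (SE; adjusted p = 0.00016), Fosl1, a Fos-family AP-1 subunit, by 2.5 ± 0.66 (SE; adjusted p = 0.012), Tnf by 2.13 ± 0.32 (SE; adjusted p = 0.00021), and Junb, a Jun-family subunit, by 1.82 ± 0.50 (SE; adjusted p = 0.016). With anti-IFNAR1 8 were lower than isotype (median -0.87), against 4.89% of all genes: Il1b fell by 5.13, Fosl1 by 2.37, Junb by 1.95 and Osm, oncostatin M, by 1.61. At day 14 Il1b rose by 2.37, Fosl1 by 2.14, Stat3 by 1.83 and Osmr, the oncostatin M receptor, by 1.29, and none was called for anti-IFNAR1 against isotype (median -0.55).

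Lists of wound epidermis, macrophage, neutrophil and T cell markers were higher in isotype skin at day 28, where 6.66% of all genes rose, and lower with anti-IFNAR1, where 4.89% of all genes fell. The wound epidermis list holds keratins and envelope genes of repairing epidermis, with S100a8 and Defb3, while S100a9 is in the neutrophil list. Of its 8 genes, 7 rose in isotype skin at day 28 and 6 fell with anti-IFNAR1 relative to isotype. Their mean log2 level ran from 7.16 to 8.66 on the syngeneic arrays, 12.76 to 14.22 on the isotype arrays and 8.0 to 9.36 on the anti-IFNAR1 arrays of that day. On isotype replicate 4 of day 14, where Mmp13 read 4.53, the list was at 8.08, against 12.14 to 13.53 on the other 3. In the wound epidermis list, Defb3 exceeded an intensity of 16 on 3 arrays only.

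Of 10 macrophage and monocyte genes, all detected on every array, 9 rose in isotype skin at day 14, where 5.29% of all genes rose. Of these 10, 8 rose at day 28 and 5 fell with anti-IFNAR1 at day 28. Their mean ran from 8.5 to 9.80 in syngeneic skin, 10.81 to 11.70 in isotype skin and 9.88 to 10.28 in anti-IFNAR1 skin at day 28. At day 14 the ranges were 9.37 to 10.63, 11.96 to 12.40 and 10.83 to 11.51. Syngeneic replicate 1 of day 14, with Mmp12 at 9.29, had a macrophage mean of 10.51 and a wound epidermis mean of 9.61.

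Of 8 neutrophil genes, 7 rose in isotype skin at day 28 and 7 fell with anti-IFNAR1. Their mean was 6.49 to 8.42 on the isotype arrays against 4.97 to 5.51 in syngeneic and 4.95 to 5.75 in anti-IFNAR1 skin. The granule gene Elane never exceeded an intensity of 16 and Mpo did so on 3 arrays. Of 9 fibroblast genes, 5 fell in isotype skin at day 14 and 4 at day 28, against 8.3% and 9.69% of all genes. With anti-IFNAR1 at day 28, 2 of the 9 were higher than with isotype, against 8.42% of all genes. The fibroblast mean was 9.87 to 11.47 on the day 28 isotype arrays against 11.28 to 12.25 in syngeneic skin. All 5 cartilage and bone genes measured, a tissue that also makes Mmp13, stayed below an intensity of 16 on every array. Of 6 T cell genes, 5 rose in isotype skin at day 14, where 5.29% of all genes rose, and 5 at day 28. With anti-IFNAR1 at day 28, 5 of these T cell genes fell. Their mean at day 28 was 5.76 to 6.25 in syngeneic, 8.26 to 8.80 in isotype and 6.74 to 7.14 in anti-IFNAR1 skin. All 5 adipocyte genes fell in isotype skin at day 28 (median change -2.03, against 9.69% of all genes lower) and all 5 were higher with anti-IFNAR1 than with isotype (median 2.36, against 8.42% of all genes higher). The adipocyte mean was 11.05 to 11.99, 9.14 to 10.14 and 11.06 to 12.13 in those groups. Of 6 keratinocyte genes, 1 rose in isotype skin at day 28 (median change 0.06), against 6.66% of all genes. The part of these cell types in the protease and inhibitor values was not tested.

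**Figure D5:**
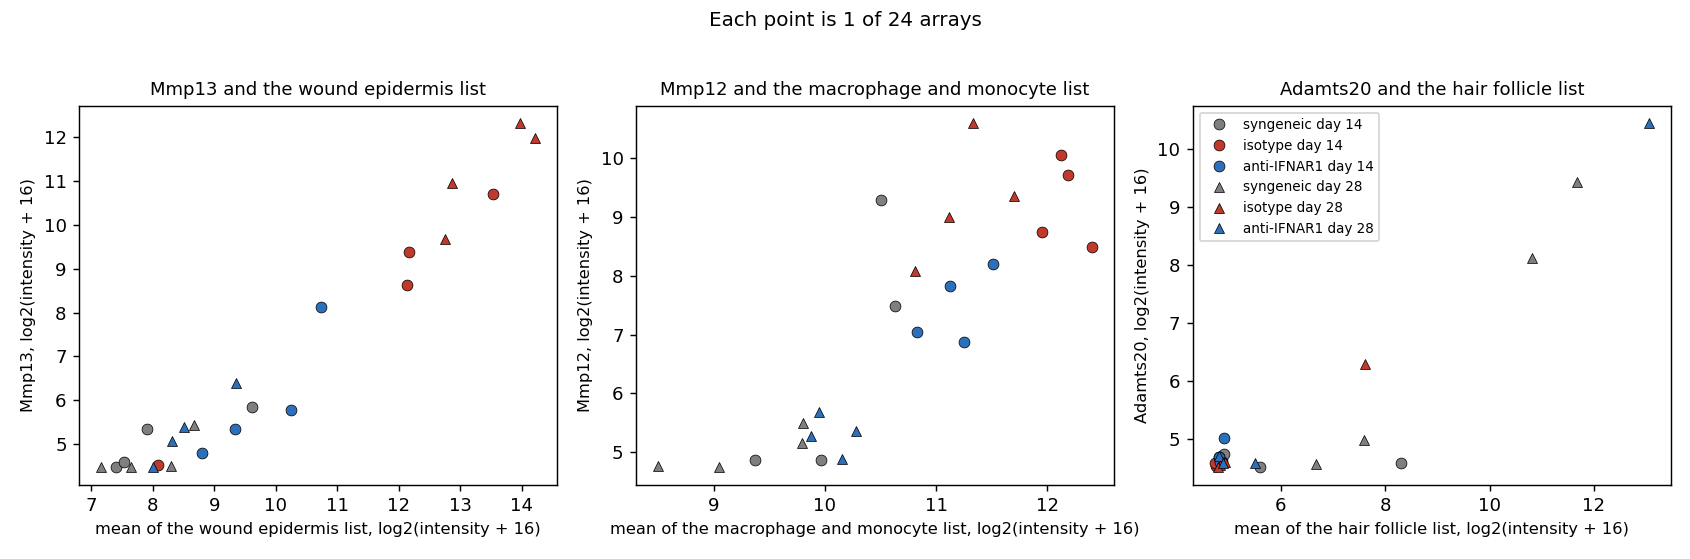
Each point is 1 of 24 arrays; the vertical axis is the gene and the horizontal axis the mean of a marker list, both as log2(intensity + 16), with colours for groups and shapes for days. Arrays with high Mmp13 have high wound epidermis genes, the 8 isotype arrays have Mmp12 of 8.08 to 10.59 and macrophage means of 10.81 to 12.40, and the 4 arrays with Adamts20 above 6 have hair follicle means of 7.61 to 13.05.

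RNA quality varied between arrays. The log2 ratio of the 3′ to the 5′ Gapdh control probe set, which is higher in degraded RNA, averaged 1.34 on the isotype arrays of day 14 against 2.88 on the syngeneic and 3.35 on the anti-IFNAR1 arrays. The syngeneic arrays of day 14 read 3.19, 0.99, 0.97 and 6.36, and without replicate 4 their mean was 1.72. At day 28 the means of the isotype, syngeneic and anti-IFNAR1 arrays were 2.51, 2.32 and 2.11. Without the 5 arrays with a ratio above 4, the day 14 calls between isotype and syngeneic skin were Mmp19 and Timp2, and at day 28 they were Mmp13, Mmp12, Mmp9, Mmp11, Mmp19, Mmp23 and Timp2. The count over all genes also fell there, from 2472 to 1315 at day 14 and from 2973 to 2228 at day 28. In that fit Timp1 had an adjusted p of 0.12 for isotype against syngeneic and 0.11 for anti-IFNAR1 against isotype at day 28, and Mmp10 had 0.079 and 0.066. With the ratio as a covariate over all arrays, the day 14 calls were Mmp13, Mmp19, Timp1, Timp2, Adamts1, Adamts4 and Adamts9. That fit called 12 genes at day 28, adding Mmp3, Mmp23 and Timp3 to the 9, and for anti-IFNAR1 against isotype it called the 8 named above. Its count over all genes was higher too. It was 2737 at day 14 and 3830 at day 28 for isotype against syngeneic, against 2472 and 2973 without the covariate. For anti-IFNAR1 against isotype at day 28 it was 3213 against 2422.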

How the data were processed

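Affymetrix mouse genome arrays were hybridised with biotin-labelled RNA of whole skin, per the labels' protocols. The authors deposited probe set intensities on a linear scale, from 1.68 to 92640; their summarisation and normalisation are not given in the sources used here. Values were taken as log2(intensity + 16), which shrinks changes of dim genes. Of 45101 probe sets, 34945 carried 1 gene symbol, 932 several and 9160 none here; each gene was represented by its probe set with the highest mean, which gave 18193 genes; 19 of the 35 genes had several. Group means were fitted to all 24 arrays with limma 3.58.1 in R 4.3.3 and tested two-sided, with Benjamini-Hochberg adjustment over all genes. The script was tested on simulated data. The number of arrays limits the precision. The genes, lists and tests were chosen with earlier results of these data known. Values on every array are given for Mmp13, the Timp genes and every gene called between isotype and syngeneic or anti-IFNAR1 and isotype skin, and up to 4 called genes are named per list; other values were chosen after they were seen. Symbols follow GEO's platform annotation, updated through RefSeq (GRCm38.p6). Replicate numbers were not used to pair the arrays. Correlations of same-numbered deviations ran from -0.287 to 0.335. They were not set against differently numbered arrays, so they cannot decide whether the numbers pair arrays.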

Additional observations from a re-analysis of the deposited data

Results flagged for a closer look

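Among 78 sets of 4 arrays (13 genes in 6 groups), 7 held 1 array far from the other 3, where about 3.9 would be expected by chance at 1 in 20. Mmp10 read 6.73 on isotype replicate 1 of day 14 against 4.35 to 4.41 on the others, and 4.67 on anti-IFNAR1 replicate 1 of day 14 against 4.34 to 4.36. On anti-IFNAR1 replicate 2 of day 28, Mmp11 read 6.51 against 5.63 to 5.66 and Mmp9 read 6.40 against 7.86 on each of the others. On syngeneic replicate 1 of day 28, Mmp13 read 5.43 against 4.48 to 4.51 and Mmp23 read 7.92 against 8.31 to 8.36. Timp1 read 5.05 on anti-IFNAR1 replicate 1 of day 28 against 5.51 to 5.55.

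The change of Mmp11 from syngeneic to isotype skin differed between day 28 and day 14 by 2.79 (adjusted p = 0.043 in limma). A Timp2 probe set that did not represent the gene rose by 1.06 from syngeneic to isotype skin at day 14, opposite to the probe set that did.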

How the results depend on the processing

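Counts of called genes, reported as 7 and 9 for isotype against syngeneic skin (day 14, day 28), 0 and 8 for anti-IFNAR1 against isotype, were 11, 14, 7 and 14 with array weights, and 0, 7, 0 and 6 in fits of only the arrays compared. Without arrays of high Gapdh ratio they were 2, 7, 0 and 8. Over all 18193 genes the counts moved too, from 2472, 2973, 148 and 2422 as reported to 3638, 5638, 2596 and 4860 with array weights. They were 83, 2250, 2 and 1539 in only the arrays compared, and 1315, 2228, 19 and 2002 without high Gapdh ratios. Array weights gave 1 call for anti-IFNAR1 against syngeneic at day 14 (Mmp19) and 1 at day 28 (Adamts1), and 2 for anti-IFNAR1 skin between days. Of all genes, 891, 656 and 1659 were called there. The difference between days of anti-IFNAR1 against isotype, with 0 calls, gave 1 (Mmp11) with array weights, with the hair follicle mean as a covariate or without the dimmest 40% of genes. That of isotype against syngeneic, with 1 call, gave 0 in the fit of only the arrays compared, with the replicate block, and without high Gapdh ratios. Over all genes fitted, the former had 1224, 86 and 50 calls and the latter 1, 5 and 2, in the order named. Isotype skin between days, with 2 calls, gave 1, 0 and 1 with array weights, in only the arrays compared and without high Gapdh ratios. There 1178, 6 and 153 of all genes were called. With the replicate number as a block the 4 counts were 7, 9, 0 and 8, although it is not known whether the numbers pair arrays. Over all genes that fit called 2160, 2704, 64 and 2213. Leaving out 1 array gave 2 to 10 and 8 to 11 (isotype against syngeneic), 0 to 4 and 6 to 10 (anti-IFNAR1 against isotype), 0 to 1 and 0 to 0 (anti-IFNAR1 against syngeneic), 0 to 1 for both differences between days, 1 to 3 for isotype skin between days, and 0 for syngeneic and anti-IFNAR1 skin between days. The 4 calls without isotype replicate 4 of day 14 were Adamts1, Adamts4, Mmp13 and Timp1. The mean of all probe sets turned Timp2 to 0.28 at day 14 (isotype minus syngeneic). The causes were not tested, beyond fewer arrays in the smaller fits.

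Signal over background limits 7 of the 35 genes, which never exceeded an intensity of 16. The offset also sets in part the changes of Mmp8, Mmp10, Mmp12, Mmp13 and Timp1, which lie at background on all or some arrays of a group. Mmp11 and Mmp19 exceeded 16 on every array but came close to it. Mmp11 had intensities of 16.43 to 25.27 on the day 14 isotype arrays. The Mmp19 change from syngeneic to isotype skin at day 28 was 2.57 with an offset of 1, against 2.09 with 16.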
